A study of Mus musculus with 6 samples.

Results

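The 9 voltage-gated sodium channel subunits described here are 6 pore-forming alpha subunits (*Scn1a*, *Scn3a*, *Scn8a*, *Scn9a*, *Scn10a*, and *Scn11a*) and 3 auxiliary beta subunits (*Scn2b*, *Scn3b*, and *Scn4b*) of sensory ganglia. They were picked by gene symbol, and all 9 were found among the 48440 rows of the read count table and passed the filter on low counts. RNA was sequenced from the ipsilateral L3/4 dorsal root ganglia (DRGs) of wild-type male mice after microinjection of an adeno-associated virus into the ganglia of that side. The 3 GFP libraries received AAV5-*Gfp*, and the 3 NIS libraries received AAV5-*NIS* V1 and V2, vectors for 2 transcript variants of *NIS-lncRNA*, a long noncoding RNA named for its upregulation by nerve injury. The labels name no nerve injury in either group. The deposited text gives collection at 5 weeks and profiling at 4 weeks after microinjection. The age of the mice, the number of animals behind a library, and the promoter of the viral constructs were not given in the sources used here, so p-values measure the spread between libraries only. Each group received its own virus preparation, which cannot be told apart from the transcripts it carried. The comparison asks which genes differ downstream of *NIS-lncRNA*, whose own level was not analysed here.

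Voltage-gated sodium channels open on depolarization and carry the rising phase of the action potential. The alpha subunit forms the pore, and beta subunits modulate its gating and its delivery to the membrane. In DRG neurons the alpha subunits fall into those blocked by low tetrodotoxin (Nav1.1, Nav1.3, Nav1.6, and Nav1.7, encoded by *Scn1a*, *Scn3a*, *Scn8a*, and *Scn9a*) and those that resist it (Nav1.8 and Nav1.9, encoded by *Scn10a* and *Scn11a*). Nav1.7, Nav1.8, and Nav1.9 are abundant in nociceptors, and Nav1.6 is the main channel of nodes of Ranvier.

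Total counts ranged from 32618252 to 34764282 in the GFP libraries and from 32025612 to 34228594 in the NIS libraries. Counts were compared with edgeR's quasi-likelihood test over 18593 genes, and a gene passed the test, or was called, where its p-value after Benjamini-Hochberg adjustment was under 0.05. Levels are given as CPM, a gene's counts relative to the size of its library after TMM normalization, and fold changes as log2 of NIS over GFP. By this test 5.27% of all genes tested were lower and 10.1% were higher in NIS.

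The annotation of GRCm38 places the subunits on 3 chromosomes. *Scn3a* (65457118 to 65567627), *Scn1a* (66270778 to 66440840), and *Scn9a* (66480080 to 66634962) lie in 1 cluster on chromosome 2, all on the minus strand. On chromosome 9, *Scn10a* (119608456 to 119719322) and *Scn11a* (119753759 to 119825456) are neighbours on the minus strand. The same chromosome carries *Scn3b* (40269217 to 40291618), *Scn2b* (45117782 to 45130070), and *Scn4b* (45138395 to 45154152) on the plus strand. *Scn8a* stands alone on chromosome 15 (100869858 to 101045938, plus strand). The alpha subunits are paralogs, and how the counting treated reads that map to several genes was not given.

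The start regions of 3 members are shown because they represent the subunit that passed the test (*Scn8a*), the most abundant subunit (*Scn10a*), and the subunit without a lower mean in NIS (*Scn2b*). Each window runs from 250 bases before to 50 bases after a RefSeq start site of GRCm38.p6, 5′ to 3′ on the strand of the gene, with CG dinucleotides in capitals. They lie at chr15:100870395-100870694 (*Scn8a*, plus strand, the first of its 2 start sites), chr9:119718983-119719282 (*Scn10a*, minus strand), and chr9:45117626-45117925 (*Scn2b*, plus strand). By the gene bounds given above, the *Scn8a* and *Scn10a* windows lie wholly inside the genes, as does that of the second *Scn8a* start. These windows are thus not upstream of the annotated gene start. The ends of the *Scn10a* and *Scn11a* windows were found in no annotated transcript of the gene.
Scn8a: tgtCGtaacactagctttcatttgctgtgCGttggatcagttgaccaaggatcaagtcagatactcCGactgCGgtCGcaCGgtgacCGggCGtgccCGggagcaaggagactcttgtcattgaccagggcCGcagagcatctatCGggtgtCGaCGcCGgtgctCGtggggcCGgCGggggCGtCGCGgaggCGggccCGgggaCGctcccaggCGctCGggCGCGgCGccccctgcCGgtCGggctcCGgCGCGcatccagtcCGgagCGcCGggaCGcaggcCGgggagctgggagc
Scn10a: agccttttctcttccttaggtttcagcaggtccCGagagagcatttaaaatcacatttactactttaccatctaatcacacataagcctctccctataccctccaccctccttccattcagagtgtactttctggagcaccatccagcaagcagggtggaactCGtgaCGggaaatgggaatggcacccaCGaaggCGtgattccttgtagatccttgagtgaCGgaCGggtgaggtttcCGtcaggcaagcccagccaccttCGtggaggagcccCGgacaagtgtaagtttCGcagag
Scn2b: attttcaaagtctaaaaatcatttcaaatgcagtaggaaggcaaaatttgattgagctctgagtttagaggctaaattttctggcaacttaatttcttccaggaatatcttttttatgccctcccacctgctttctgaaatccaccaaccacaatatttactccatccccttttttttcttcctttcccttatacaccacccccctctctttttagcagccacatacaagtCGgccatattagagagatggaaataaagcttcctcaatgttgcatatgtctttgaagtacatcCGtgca
The *Scn8a* window holds 38 CG dinucleotides, the *Scn10a* window 11, and the *Scn2b* window 2, where the median over 32851 promoter windows is 7. Windows were available for 7 of the 9 members, without *Scn3a* and *Scn3b*. In the others, the count was 26 for *Scn4b*, 12 for the second start of *Scn8a*, 9 for *Scn9a*, 5 for *Scn1a*, and 3 for *Scn11a*. Motifs were searched as exact letters on both strands. The TATA box TATAAA was in none of the 8 windows and in 13.6% of all windows. The GC box GGGCGG was in none of the 8 and in 35.7% of all. The cyclic AMP response element TGACGTCA was likewise in none, against 1.79% of all, as was the stretch TTCAGCACC of the REST element, against 0.371%. The letters CCAAT were in the windows of *Scn1a* and *Scn4b* and in 37.4% of all.

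Abundance was compared between subunits as CPM per kilobase of exons. In the GFP libraries *Scn10a* was the most abundant subunit, at 84.2 ± 9.64 CPM per kb (SD, n = 3), followed by *Scn11a* at 55.6 ± 6.87 (SD, n = 3), so that both tetrodotoxin-resistant channels of nociceptors stood at the top. *Scn4b*, a beta subunit with a part in resurgent current, came next with 35.8 ± 2.66 (SD, n = 3) and was the leading beta subunit. The alpha subunits *Scn9a*, *Scn1a*, and *Scn8a* followed at 29.6 ± 2.80, 19.1 ± 0.767, and 12.6 ± 1.89 CPM per kb (SD, n = 3), respectively. *Scn3b* stood at 9.48 ± 0.710 CPM per kb (SD, n = 3). The 2 scarcest were *Scn2b* at 1.59 ± 0.0452 and *Scn3a*, an alpha subunit of the embryonic nervous system that is known for its return after axotomy, at 0.910 ± 0.0682 (SD, n = 3), which is 92.6-fold below *Scn10a*.

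Every subunit held the same rank in each of the 3 GFP libraries, and no neighbours in this order overlapped between libraries. *Scn4b* (lowest library 34.2 CPM per kb) lay close to *Scn9a* (highest 32.8), as did *Scn8a* (lowest 11.3) to *Scn3b* (highest 10.3). With the longest transcript as the length, *Scn9a* (38.4 CPM per kb) passed *Scn4b* (35.8) to rank 3, and the other 7 ranks were kept. In NIS, *Scn8a* was at 7.35 ± 1.20 and *Scn3b* at 7.60 ± 1.17 CPM per kb (SD, n = 3), so that *Scn8a* moved from rank 6 to rank 7. With the longest transcript, *Scn8a* stayed at rank 6 in NIS (10.1 against 9.99 CPM per kb). The other 7 subunits had the same rank in both groups.

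**Figure D1:**
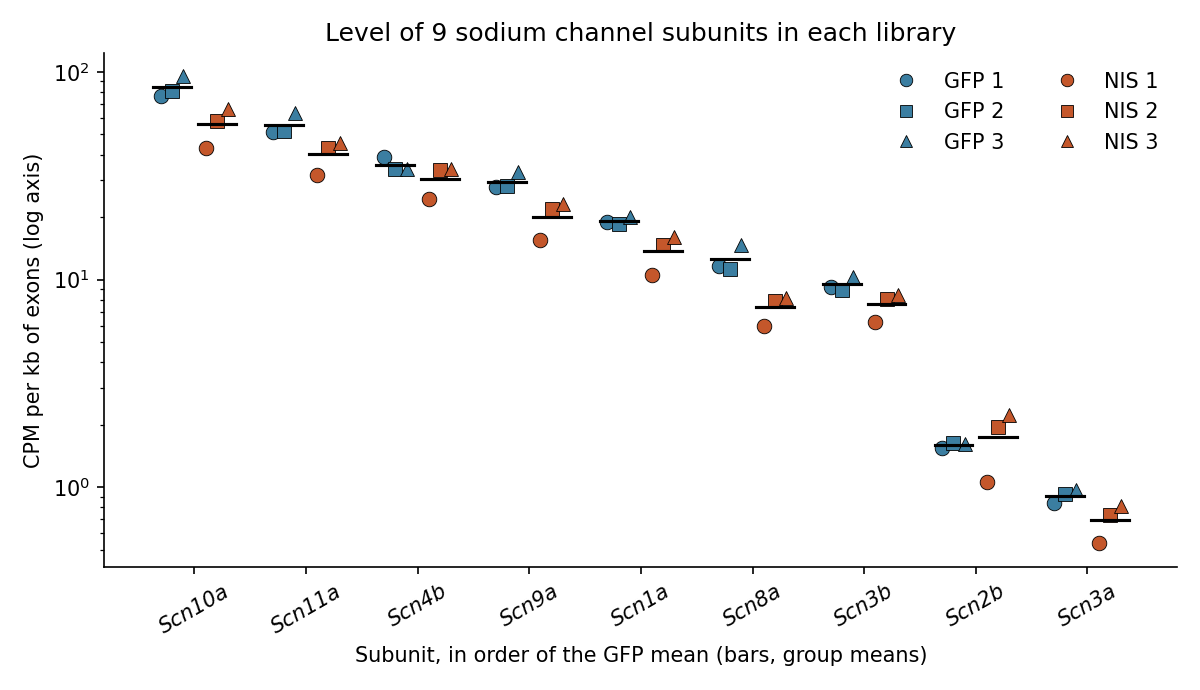
Level of each subunit in CPM per kb of exons (y axis, log scale) in the 3 GFP (blue) and 3 NIS (red) libraries, with subunits on the x axis in order of the GFP mean and bars at the group means. *Scn10a* is at the top in both groups (84.2 and 55.9 CPM per kb) and *Scn3a* at the bottom (0.910 and 0.695), and NIS 1 is the lowest library for each of the 9 subunits.

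Only *Scn8a* passed the test. *Scn8a*, which encodes Nav1.6, was at 184, 178, and 232 CPM in GFP 1, 2, and 3, and at 94.2, 125, and 129 CPM in NIS 1, 2, and 3. All 3 NIS libraries lay below all 3 GFP libraries. It fell by 0.77 on the log2 scale (standard error 0.15, 95% interval -1.12 to -0.42, adjusted p = 0.0224 in edgeR's quasi-likelihood test), or by 41.5%. An exact two-sided permutation test of its 6 values gave p = 0.1, the smallest that 3 libraries against 3 can give.

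The call of *Scn8a* depended on single GFP libraries. The log2 difference was -0.82 without GFP 1, -0.84 without GFP 2, and -0.64 without GFP 3, with edgeR adjusted p-values of 0.0567, 0.0818, and 0.0902. In the fits without GFP 2 and without GFP 3, 0 genes of any kind were lower by adjusted p in edgeR, although 2029 and 1815 had an unadjusted p under 0.05. Each of the 3 fits that left out a NIS library kept the call.

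*Scn10a*, the Nav1.8 gene, was at 613, 643, and 758 CPM in GFP 1, 2, and 3 and at 344, 464, and 529 CPM in NIS 1, 2, and 3. The groups did not overlap, and the log2 fold change was -0.59 (standard error 0.17, 95% interval -0.98 to -0.20), with an adjusted p of 0.0542 in edgeR. *Scn9a*, which encodes Nav1.7, a channel that sets the threshold of nociceptors, was at 355, 360, and 419 CPM in GFP and at 198, 279, and 295 CPM in NIS. On the log2 scale NIS differed by -0.56 (standard error 0.16, 95% interval -0.92 to -0.19, adjusted p = 0.0523 in edgeR). Both were just short of the threshold, and both passed it in edgeR without NIS 1 (log2 fold changes -0.43 and -0.39) and without NIS 3 (-0.72 and -0.66).

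*Scn11a*, the Nav1.9 gene of small nociceptors, was at 303, 309, and 377 CPM in GFP and at 189, 256, and 271 CPM in NIS. Its log2 fold change was -0.47 (standard error 0.15, 95% interval -0.82 to -0.11, adjusted p = 0.0769 in edgeR). *Scn1a* encodes Nav1.1, which is found mainly in medium and large DRG neurons. It was at 210.5, 206, and 223 CPM in GFP and at 117, 164, and 178 CPM in NIS, with a log2 fold change of -0.48 (standard error 0.15, 95% interval -0.82 to -0.13, adjusted p = 0.0673 in edgeR). *Scn11a* passed without NIS 3 (log2 fold change -0.56), and *Scn1a* without NIS 1 (-0.31) and without NIS 3 (-0.59). *Scn3a*, the scarcest per kilobase of exons, was at 10.4, 11.5, and 12.1 CPM in GFP and at 6.69, 9.19, and 10.1 CPM in NIS. The log2 fold change of *Scn3a* was -0.39 (standard error 0.16, 95% interval -0.77 to -0.01, adjusted p = 0.137 in edgeR). For all 3 of these genes the NIS libraries lay below the GFP libraries, with the closest pair in *Scn3a*.

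No beta subunit passed the test. *Scn3b* was at 50.6, 48.7, and 56.1 CPM in GFP and at 34.2, 44.0, and 46.2 CPM in NIS, with a log2 fold change of -0.32 (standard error 0.12, 95% interval -0.60 to -0.04, adjusted p = 0.110 in edgeR). *Scn4b* was at 193, 170.5, and 170.5 CPM in GFP and at 122, 167, and 169 CPM in NIS. The log2 fold change of *Scn4b* was -0.22 (standard error 0.13, 95% interval -0.54 to 0.09, adjusted p = 0.279 in edgeR), and NIS 2 and NIS 3 lay close to the lowest GFP library. *Scn2b* was at 7.19, 7.59, and 7.50 CPM in GFP and at 4.95, 9.04, and 10.4 CPM in NIS, so that NIS 1 lay below and NIS 2 and NIS 3 above every GFP library. Its log2 fold change of 0.13 (standard error 0.25, 95% interval -0.45 to 0.72, adjusted p = 0.732 in edgeR) became -0.08 without NIS 3 and 0.39 without NIS 1.

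**Figure D2:**
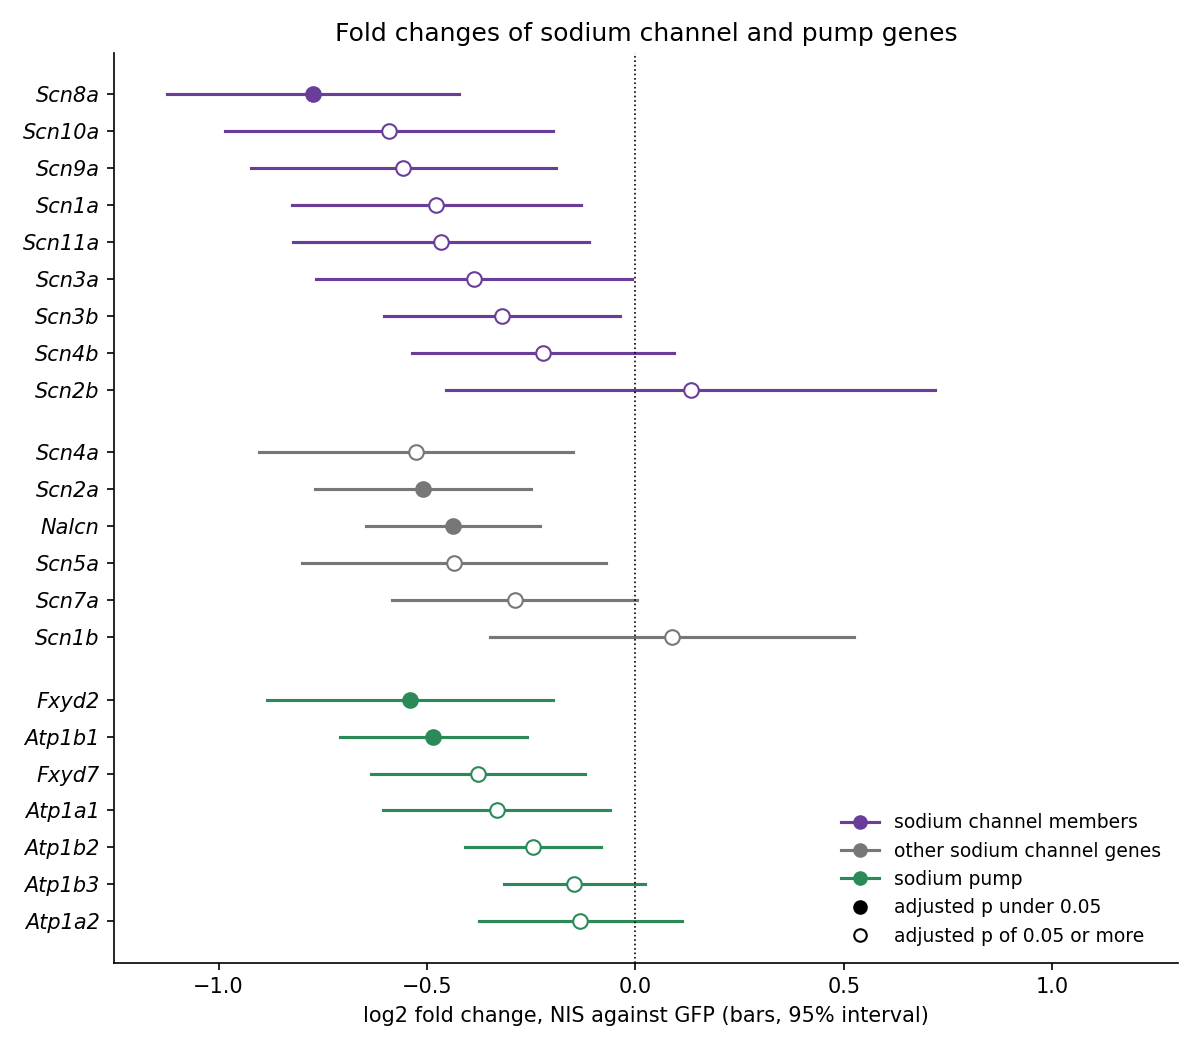
Log2 fold change of NIS against GFP (x axis) with its 95% interval for the 9 members, 6 other sodium channel genes, and 7 genes of the sodium pump (y axis), where filled points have an adjusted p under 0.05 in edgeR. The members run from -0.77 for *Scn8a*, the only filled one, to 0.13 for *Scn2b*, and with scaling by pan-neuronal markers in place of TMM, which moves the median of all genes to 0.51, *Scn8a* is at -0.29 and *Scn2b* at 0.58.

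Over the 9 members, 1 was called lower (11.1%) and 0 higher, against 5.27% and 10.1% of all genes. At an unadjusted p under 0.05, 7 were lower, against 15.5% of all genes. In 8 of the 9, all NIS libraries lay below all GFP libraries, which held for 22.0% of the genes tested, and in 0 they all lay above, which held for 23.4%. The median log2 fold change of the members was -0.47 with TMM, against -0.00030 over all genes tested, whereas it was 0.016 when libraries were scaled by pan-neuronal markers, a scaling that moved the median of all genes to 0.51. The number of members called lower was 4 without NIS 1, 5 without NIS 3, 1 without NIS 2, and 0 without GFP 1, GFP 2, or GFP 3. Genes of any kind called lower in the same fits numbered 1095, 1446, and 150 without NIS 1, NIS 3, and NIS 2. They numbered 59, 0, and 0 without GFP 1, GFP 2, and GFP 3. Without NIS 1, the median of the members was -0.31.

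Other genes of the sodium channel pathway were described from lists. The calls of these and later lists without a library are to be read beside the numbers of all genes lower, given above. Of 6 other sodium channel genes, 2 fell and 0 rose. *Scn2a*, an alpha subunit best known from the brain and listed in the table as *Scn2a1*, was lower by a log2 fold change of -0.51 ± 0.11 (standard error, edgeR adjusted p = 0.0281). *Nalcn*, the sodium leak channel, was at -0.44 ± 0.09 (standard error, edgeR adjusted p = 0.0243). *Scn4a*, the alpha subunit of skeletal muscle, was at -0.53 and did not pass (adjusted p = 0.0648 in edgeR). None of the 6 was called without GFP 1, GFP 2, or GFP 3, and *Scn2a* was not called without NIS 2.

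Of 18 genes for proteins that bind, anchor, traffic, or ubiquitinate sodium channels, 7 fell and 0 rose, with a median log2 fold change of -0.39. *Ank3*, which encodes the ankyrin that holds the channels at the axon initial segment and the nodes, was at -0.60 ± 0.13 on the log2 scale (standard error). *Nedd4l*, a ubiquitin ligase that removes sodium channels from the membrane, was at -0.53 ± 0.10. *Cntnap1*, an adhesion protein of the paranode, was at -0.43 ± 0.08. Their adjusted p-values in edgeR were 0.0277, 0.0213, and 0.0212. Without GFP 1, GFP 2, GFP 3, or NIS 2, 0 of the 18 were called, whereas 9 were lower without NIS 1 and 10 without NIS 3.

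Of 7 genes of the sodium-potassium pump, which restores the gradients the channels use, 2 fell and 0 rose, with a median log2 fold change of -0.33. *Atp1b1*, a beta subunit of the pump, was at 289.7, 295, and 318 CPM in GFP 1, 2, and 3 and at 189.6, 231, and 224 CPM in NIS 1, 2, and 3. This was a log2 fold change of -0.48 ± 0.10 (standard error, edgeR adjusted p = 0.0231), which was 0.0098 with scaling by pan-neuronal markers. *Fxyd2*, a regulator of the pump, was at 214, 189, and 232 CPM in GFP and at 115, 157, and 165 CPM in NIS, a log2 fold change of -0.54 ± 0.15 (standard error, edgeR adjusted p = 0.0478). *Atp1b2*, another beta subunit, was at -0.25 and did not pass (edgeR adjusted p = 0.0538). In edgeR 0 pump genes were lower without GFP 1, GFP 2, or GFP 3, and *Fxyd2* was not called without NIS 2.

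Neuronal markers moved with the sodium channels. In bulk ganglia, fewer neurons and less RNA per neuron cannot be told apart. All 12 pan-neuronal markers were detected in every library, and all 12 had a log2 fold change below 0 with TMM (median -0.45), whereas 7 of the 12, *Pou4f1* among them, were above 0 with scaling by the markers themselves, which centres them near 0. Of these, 3 were called lower, the neuronal splicing factor *Rbfox3* (log2 fold change -0.93), the synaptic vesicle gene *Syt1* (-0.73), and the sensory neuron transcription factor *Pou4f1* (-0.43). Their adjusted p-values in edgeR were 0.0256, 0.0279, and 0.0376. No pan-neuronal marker was called without GFP 1, GFP 2, or GFP 3, 1 was called without NIS 2, 6 without NIS 3, and 7 without NIS 1. With DESeq2 8 were called lower, and without the filter on low counts 6.

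Subtype markers were lower as well by median. Of 10 nociceptor markers, 1 fell, *Prdm12*, a regulator of nociceptor identity (log2 fold change -0.65, adjusted p = 0.0438 in edgeR), and the median was -0.33. It was not called without GFP 1, GFP 2, GFP 3, NIS 2, or NIS 3. The number of nociceptor markers called lower was 0 without GFP 1, GFP 2, GFP 3, or NIS 2, but 4 without NIS 1, 2 without NIS 3 (*P2rx3* and *Th*), and 3 with DESeq2. Of 10 markers of large neurons, 4 fell and 1 rose, with a median of -0.37. *Kcnc1*, a potassium channel of fast firing neurons, and *Ntrk3*, the receptor of neurotrophin-3, were at -0.76 and -0.61. The other 2, named after their values were seen, were *Pvalb* (-0.51) and *Cntnap2* (-0.72), which the list of channel partners also holds. *Runx3*, which is also expressed by T lymphocytes, rose by 1.60. Without GFP 1, GFP 2, or GFP 3, none of these 5 was called, and without NIS 2 the call was kept by *Kcnc1* and *Runx3*.

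Library by library, the sodium channels followed the neuronal markers. Relative to the GFP mean, the median log2 level of the 9 members was -0.79 in NIS 1, -0.36 in NIS 2, and -0.26 in NIS 3, and between -0.09 and 0.12 in the GFP libraries. That of the pan-neuronal markers was -0.82, -0.30, and -0.26 in NIS 1, 2, and 3. Satellite glia markers were at -0.23, 0.0027, and 0.02, and Schwann cell markers at 0.15, 0.02, and 0.12, with 0 of 16 genes called in either direction by edgeR, and 2 of them at an unadjusted p under 0.05 (*Kcnj10* lower, *Egr2* higher). Without NIS 3, the satellite glia marker *Cdh19* was called lower (log2 fold change -0.38, edgeR adjusted p = 0.0285). With scaling by pan-neuronal markers, 5 of the 8 satellite glia and 4 of the 8 Schwann cell markers were called higher, as were 6622 genes of any kind.

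Immune markers moved the opposite way, and most in NIS 1. Of 10 macrophage markers, 9 were higher, and their summed level was 143 to 204 CPM in GFP and 395 to 828 CPM in NIS. Of these sums *Ptprc*, a gene of leukocytes in general, held 39.9, 27.8, and 26.0 CPM in GFP 1, 2, and 3. It held 362, 162, and 140 CPM in NIS 1, 2, and 3. Of 10 lymphocyte markers, 9 were higher, with a summed level of 6.49 to 16.5 CPM in GFP and 230 to 334 CPM in NIS. The single gene *Jchain* was at 3.87, 1.04, and 1.51 CPM in GFP 1, 2, and 3. In NIS 1, 2, and 3 it was at 194, 181, and 169 CPM, a large part of the sum. The markers not called were *Cx3cr1* and *Cd8a*, and none of the 20 was at 0 in any library. Without GFP 2 or GFP 3, 0 macrophage and 1 lymphocyte marker passed, and without GFP 1, 4 and 10 passed. Genes of any kind called higher numbered 12, 15, and 257 without GFP 2, GFP 3, and GFP 1. In these fits all 10 macrophage and all 10 lymphocyte markers had a log2 fold change above 0. Relative to the GFP mean, the median log2 level of the macrophage markers was 2.12, 1.63, and 1.16 in NIS 1, 2, and 3. Their part in the values of the sodium channels was not tested.

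Of 12 genes of nerve injury, 3 were called higher and 0 lower. By log2 fold change 10 were above 0 and 2 below, *Gap43* (-0.26) and *Sox11* (-0.23), both named after their values were seen. All NIS libraries lay below all GFP libraries in these 2 (22.0% of all genes). They lay above in 5 of the 12 (23.4% of all genes). With scaling by pan-neuronal markers, 0 of the 12 were below 0. Relative to the GFP mean, the median log2 level of the 12 was 0.33, 0.46, and -0.04 in NIS 1, 2, and 3. *Atf3*, the transcription factor of injured sensory neurons, was at 435, 418, and 413 counts in GFP 1, 2, and 3 and at 812, 850, and 567 counts in NIS 1, 2, and 3. This was a log2 fold change of 0.78 (edgeR adjusted p = 0.0269). *Csf1*, the macrophage growth factor, was at 0.58, and *Ecel1*, a peptidase induced in damaged neurons, at 1.07. None of the 3 was called without GFP 1, GFP 2, GFP 3, or NIS 2, and *Ecel1* was not called without NIS 1. The number of injury genes called higher was 5 without NIS 3 and 7 with scaling by pan-neuronal markers, where 2474 and 6622 genes of any kind were higher. Without NIS 2, 1020 genes of any kind were higher.

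**Figure D3:**
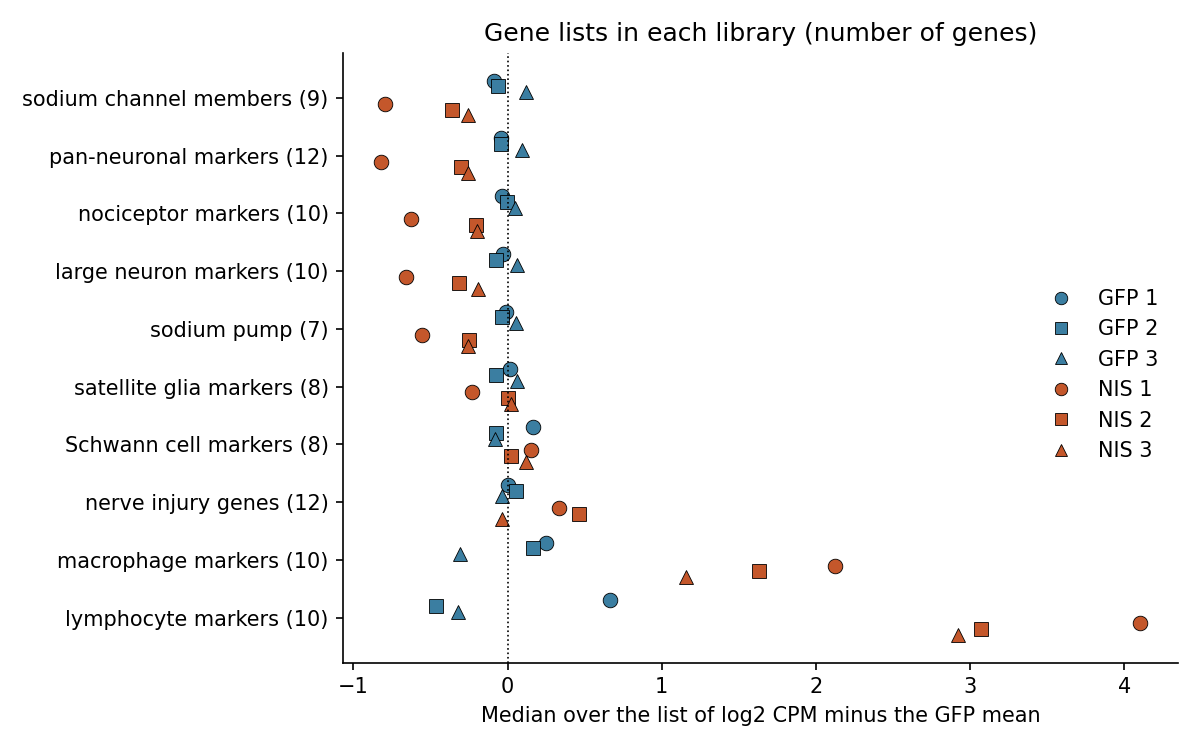
Median over each gene list of log2 CPM minus the GFP mean (x axis) in the 3 GFP (blue) and 3 NIS (red) libraries, for 10 lists (y axis, number of genes in brackets). In NIS 1 the sodium channels are at -0.79 and the pan-neuronal markers at -0.82, while the macrophage markers are at 2.12. With scaling by pan-neuronal markers, the median log2 fold change of the channels is 0.016.

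Ratios within a library do not depend on its scaling. The tetrodotoxin-resistant channels *Scn10a* and *Scn11a* together made up 68.4%, 69.3%, and 69.8% of the summed per-kilobase level of the 6 alpha subunits in GFP 1, 2, and 3, and 69.8%, 69.2%, and 70.0% in NIS 1, 2, and 3. These shares overlapped (exact two-sided permutation p = 0.5, with 0.1 the smallest possible). The difference of 0.488 percentage points was 0.103 without GFP 1 and 0.825 without GFP 3.

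Within the alpha subunits, *Scn8a* held 6.23%, 5.89%, and 6.49% in GFP and 5.55%, 5.39%, and 5.11% in NIS, so that its share was lower in every NIS library. *Scn11a* held 27.3%, 27.2%, and 28.0% in GFP and 29.7%, 29.4%, and 28.5% in NIS, and was higher in every NIS library. *Scn3a* was also higher in every NIS library, with means of 0.452% and 0.503%. The shares of *Scn1a*, *Scn9a*, and *Scn10a* overlapped between groups. These shares were not tested one by one.

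The beta subunits together amounted to 0.265, 0.233, and 0.203 of the summed alpha level in GFP 1, 2, and 3 and to 0.295, 0.297, and 0.279 in NIS 1, 2, and 3. Every NIS library was above every GFP library (exact two-sided permutation p = 0.1, the smallest possible). Each of the 3 beta subunits contributed in this direction. Relative to the summed alpha level, the group means in GFP and NIS were 17.9% and 22.3% for *Scn4b*, 4.71% and 5.54% for *Scn3b*, and 0.795% and 1.24% for *Scn2b*, without overlap between groups.

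**Figure D4:**
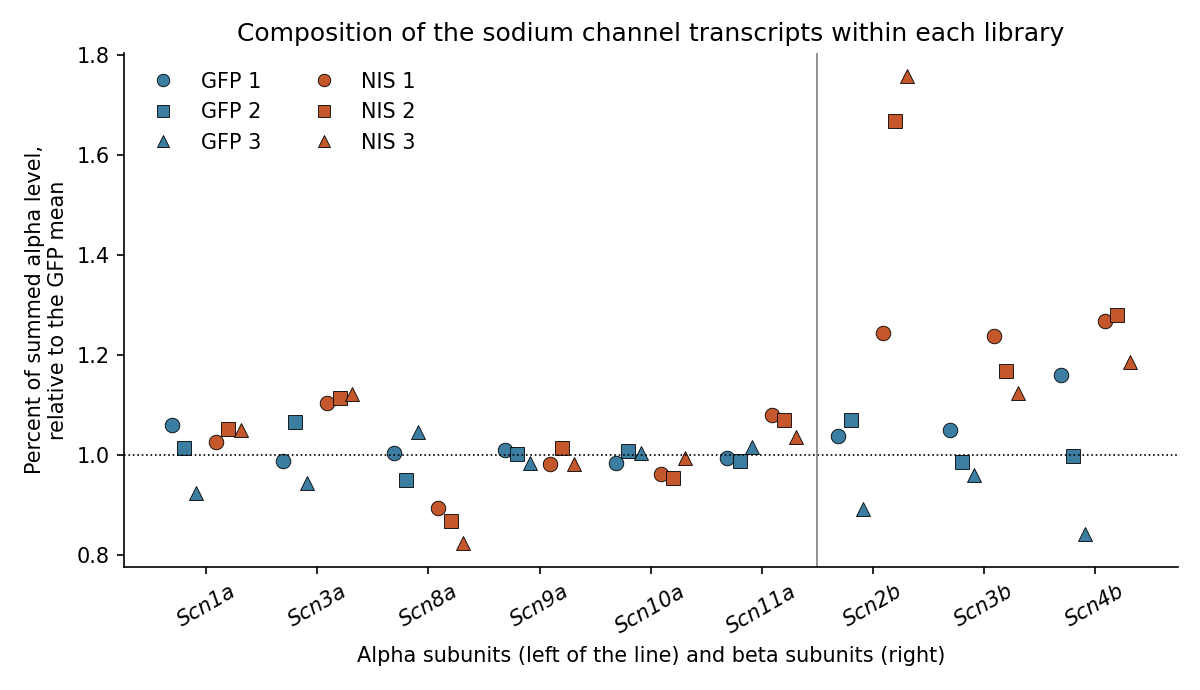
Level of each subunit as a percent of the summed alpha level of the same library, divided by its GFP mean (y axis), for the 6 alpha and 3 beta subunits (x axis) in 3 GFP (blue) and 3 NIS (red) libraries. *Scn8a* lies lower in NIS (means 6.20% and 5.35%) and all 3 beta subunits lie higher, *Scn4b* with means of 17.9% and 22.3%.

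Against the pan-neuronal markers of the same library, the mean log2 CPM of the 9 members was -1.23, -1.22, and -1.20 in GFP and -1.19, -1.16, and -1.11 in NIS. This mean was thus higher in NIS by 0.07 (exact two-sided permutation p = 0.1, the smallest possible), but with summed CPM the difference was -0.11. Of the members, the scarce *Scn2b* differed most, and the direction was not shared by all. By gene, the difference from the markers was -0.28 for *Scn8a* and -0.08 for *Scn9a*, where all NIS libraries lay below, and 0.56 for *Scn2b*, 0.26 for *Scn4b*, and 0.16 for *Scn3b*, where all lay above. The libraries of *Scn1a* (-0.01), *Scn3a* (0.09), *Scn10a* (-0.11), and *Scn11a* (0.02) overlapped. In the edgeR fit scaled by these markers, *Scn8a* was at -0.29 with an adjusted p of 0.0714.

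Across the 6 libraries, the log2 levels of *Scn9a*, *Scn10a*, and *Scn11a* correlated with each other by 0.99 or more (Pearson, a description over 6 libraries in 2 groups that share library effects), whereas *Scn2b* had at most 0.67 with any member. Among 5858 genes of at least 5 log2 CPM, those most like the mean pattern of the 9 members were *Dpysl3*, *Tpgs2*, *Herc3*, *Evi5l*, and *Plcb3*, with r between 0.998 and 0.999. This likeness was common, with r over 0.9 for 1708 of the 5858 genes. *Dpysl3* was at 429, 433, and 471 CPM in GFP and at 288, 376, and 398 CPM in NIS, the same order of libraries as in *Scn10a*. As *Dpysl3* was picked for its likeness to the members in these libraries, this order is no separate result.

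*Scn9a* overlaps the antisense gene *Gm13629* by 180 exonic bases. *Gm13629* was at 1377, 1563, and 1683 counts in GFP 1, 2, and 3 and at 662, 1001, and 1346 counts in NIS 1, 2, and 3, against 11450, 12491, and 13086 and 6510, 9272, and 10107 for *Scn9a*. This was a log2 fold change of -0.66 ± 0.22 (standard error, edgeR adjusted p = 0.0838). The libraries were stranded, but whether the counting used strand was not given, so reads of the 180 bases could belong to either gene. No exon of the other 8 subunits overlapped an exon of another annotated gene.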

How the data were processed

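Stranded total RNA libraries of 6 DRG samples were counted by the authors, who deposited raw read counts per gene symbol. The build is mm10 by the submitters' processing notes, and aligner, counter, annotation, and strand setting are not given in the sources used here. All 48440 rows carried a symbol. Counts were filtered with filterByExpr, normalized with TMM, and tested in R 4.3.3 with edgeR 4.0.16 (glmQLFit, glmQLFTest, 18593 genes), with alternatives in DESeq2 1.42.0 and limma 3.58.1. Standard errors were derived from each coefficient and its F statistic. The calculation was tested on simulated counts. Levels per kilobase and positions used exons of GENCODE M21 (GRCm38), and start regions came from RefSeq. List levels are log2(CPM + 0.1). Members and lists were chosen with earlier results of these data known. Named by rule were all members, at most 3 genes of each other list by smallest p, and the 5 genes most like the members. A few more list genes were named after their values were seen. Alternatives changed the scaling, filter, tool, length, or block, or left out each library. A gene of the sodium pump list is not reported here and was left out of that list's counts.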

Additional observations from a re-analysis of the deposited data

How the results depend on the processing

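Over 16 alternative fits, *Scn8a* kept its direction in 16 and its call in 12. The number of members called lower, 1 with TMM in edgeR, was 3 without the filter on low counts (*Scn8a*, *Scn9a*, and *Scn10a*) and 5 with DESeq2 (also *Scn1a* and *Scn11a*), and ranged from 0 to 5 when single replicates were left out. Genes lower in all numbered 989 without that filter and 1501 with DESeq2, in place of 980. With the replicate number as a block 5 members were also called lower, with 1341 genes lower in all in place of 980. Deviations of same-numbered libraries correlated by 0.0360, 0.0658, and 0.107. NIS 1 correlated better with GFP 2 (0.0433) than with its own number. NIS 2 and NIS 3 correlated best with their own number, with -0.0177 and -0.00963 as the next highest values. Such small correlations cannot tell whether same-numbered libraries share more than a number. Scaling by pan-neuronal markers gave 0 members lower, a member median of 0.016 in place of -0.47, and 6622 genes higher and 40 lower in place of 1872 and 980. Under it all genes moved up, and *Scn3a* (0.087), *Scn11a* (0.016), *Scn3b* (0.16), *Scn4b* (0.25), *Nalcn* (0.054), *Cntnap1* (0.069), *Atp1b1* (0.0098), *Atp1b2* (0.26), *Pou4f1* (0.066), *P2rx3* (0.013), *Th* (0.13), *Kcnj10* (0.21), *Cdh19* (0.25), and *Fabp7* (0.42) turned positive. *Scn2b* ranged from -0.077 (without NIS 3) to 0.39 (without NIS 1). The same scaling gave 0 lower genes among the other sodium channel genes (from 2), the partners (from 7), and the pump genes (from 2), and 4 higher partners (from 0). Total counts gave 1 higher partner. Lower pump genes numbered 1 with total counts, 1 with limma-voom, and 4 with DESeq2. The cause was not tested. Leaving out one replicate gave 0 to 2, 0 to 10, and 0 to 3 lower genes in these lists, and 0 to 1 higher partners. Over the same fits the member median ranged from -0.56 to -0.31, the beta to alpha difference from 0.0412 to 0.0723, the difference in resistant share from 0.103 to 0.825, and that of the members from pan-neuronal markers from 0.0443 to 0.0846. The last was 0.07 as reported and -0.11 with summed CPM. With the longest transcript as length, 2 ranks changed in GFP. Pan-neuronal markers called lower numbered 5 with upper quartile scaling and 6 with the replicate block, against 3, and nociceptor markers 3 with the block, against 1.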
